A study of Nicotiana benthamiana with 12 samples.

Results

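The alternative oxidase genes of Nicotiana benthamiana were taken as all genes whose description in the deposited annotation holds the words alternative oxidase or ubiquinol oxidase, in any case. Of 40763 genes in the deposited table, 5 matched, and these 5 are also the genes that carry the alternative oxidase InterPro entry. All 5 had enough counts to be tested, as were 34325 genes in all. The genes Niben101Scf00239g07005.1, Niben101Scf06109g00001.1 and Niben101Scf07773g00009.1 are each described as a mitochondrial alternative oxidase 3, with soybean alternative oxidase 3 as their database hit. Niben101Scf01556g03005.1 is described as a mitochondrial alternative oxidase, and its hit is the enzyme of Venturia inaequalis, a fungus. Niben101Scf03546g00007.1 is described as an alternative oxidase family protein, and its hit is the Arabidopsis gene AT4G22260, known as IMMUTANS, which codes for the plastid terminal oxidase. The hits name homologs and do not settle which named family member of tobacco a gene corresponds to. Coordinates and lengths of the genes were not used here.

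Alternative oxidase sits in the inner mitochondrial membrane and passes electrons from ubiquinol directly to oxygen. It bypasses complexes III and IV, which pump protons, so that less of the energy is kept for ATP. In leaves it is known as an outlet for reducing power when the cytochrome pathway is limited, and transcripts of some family members are widely used as markers of mitochondrial stress. The plastid terminal oxidase is a distant relative in thylakoid membranes, where it oxidises plastoquinol, and in Arabidopsis it is needed for carotenoid synthesis in young leaves.

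Leaves came from soil-grown plants aged 5 weeks, and RNA was sequenced in 4 groups of 3 libraries, which the submitters call biological replicates. Heat polysome RNA and heat total RNA came from plants held at 37 °C for 1 h, and mock polysome RNA and mock total RNA from plants left at 23 °C. Polysome RNA is the RNA recovered with ribosome complexes, and the series title names translational efficiency as what was studied. No genotype, transgene or number of plants per library is given in the sources used here. Titles number the libraries 5 to 7 in heat polysome and mock total RNA and 2 to 4 in heat total and mock polysome RNA. The number sets divide exactly like the groups in each comparison within a fraction or a treatment, so a difference tied to them and a treatment or fraction difference cannot be told apart there.

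Total counts were 11766622 to 14485118 in heat polysome RNA, 10945519 to 14474404 in mock polysome RNA, 12601286 to 14313000 in heat total RNA and 10724854 to 11984551 in mock total RNA. Levels below are CPM, counts scaled to library size after TMM, a correction for library composition. The 89 leaf marker genes, Rubisco small subunits and chlorophyll a-b binding proteins, summed to 300850 to 418990 CPM in heat polysome RNA, against 208650 to 290070 CPM in mock polysome RNA, and to 117360 to 125830 CPM in heat total RNA, against 138980 to 149280 CPM in mock total RNA. The 12 floral and meristem markers summed to at most 14.4 CPM in any library. The 7 vascular markers summed to 580 to 728 CPM in heat polysome RNA and 749 to 1322 CPM in mock polysome RNA, and to 251 to 264 CPM in heat total RNA and 141 to 233 CPM in mock total RNA, and their part in the results was not tested. Mock total libraries 6 and 7 stood apart: genes named like those of the plastid genome, 135 in all, reached 9370 and 9100 CPM in sum there, against 517 CPM in mock total library 5 and 202 to 2407 CPM in the other groups. Some values that rest on mock total RNA are given with all libraries only. The heat effects of the 5 genes in total RNA, among others, are therefore also given without libraries 6 and 7. That leaves mock total RNA with library 5 alone, which is assumed to vary like the libraries of the other groups, so p-values and counts of calls from that fit carry no spread of mock total RNA and lose power with the smaller group. In leaf RNA of mixed cells, fewer cells of a type and less RNA per cell cannot be told apart.

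After 1 h of heat the family split. Of the 5 genes, 2 rose and 1 fell in polysome RNA, and the counts in total RNA were the same. Among all genes tested, 28.1% rose and 28% fell in polysome RNA, 56.0% in either direction. In total RNA 25.7% rose and 28.3% fell, 54.1% in either direction. A count of 3 changed genes of 5 is thus near the background in both fractions. Heat and mock libraries did not overlap for 57.8% of all genes tested in polysome RNA and 66.5% in total RNA. A lack of overlap in a single gene is therefore common. In the mean heat effect over both fractions, 2 of the 5 genes rose and 1 fell as well, where 31.3% of all genes tested rose and 34.4% fell, 65.7% in either direction. That mean was 3.79 ± 0.12 for Niben101Scf00239g07005.1 and 1.55 ± 0.11 for Niben101Scf06109g00001.1 (edgeR adjusted p = 2.8e-13 and 5.3e-09). The median log2 change of the 5 genes was 0.39 in polysome RNA and 0.20 in total RNA, against -0.06 and -0.08 over all genes tested. Changes are log2 fold changes of heat over mock ± SE from edgeR's quasi-likelihood test over all 12 libraries. Adjusted p-values follow Benjamini and Hochberg over all genes tested, with a threshold of 0.05.

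**Figure D1:**
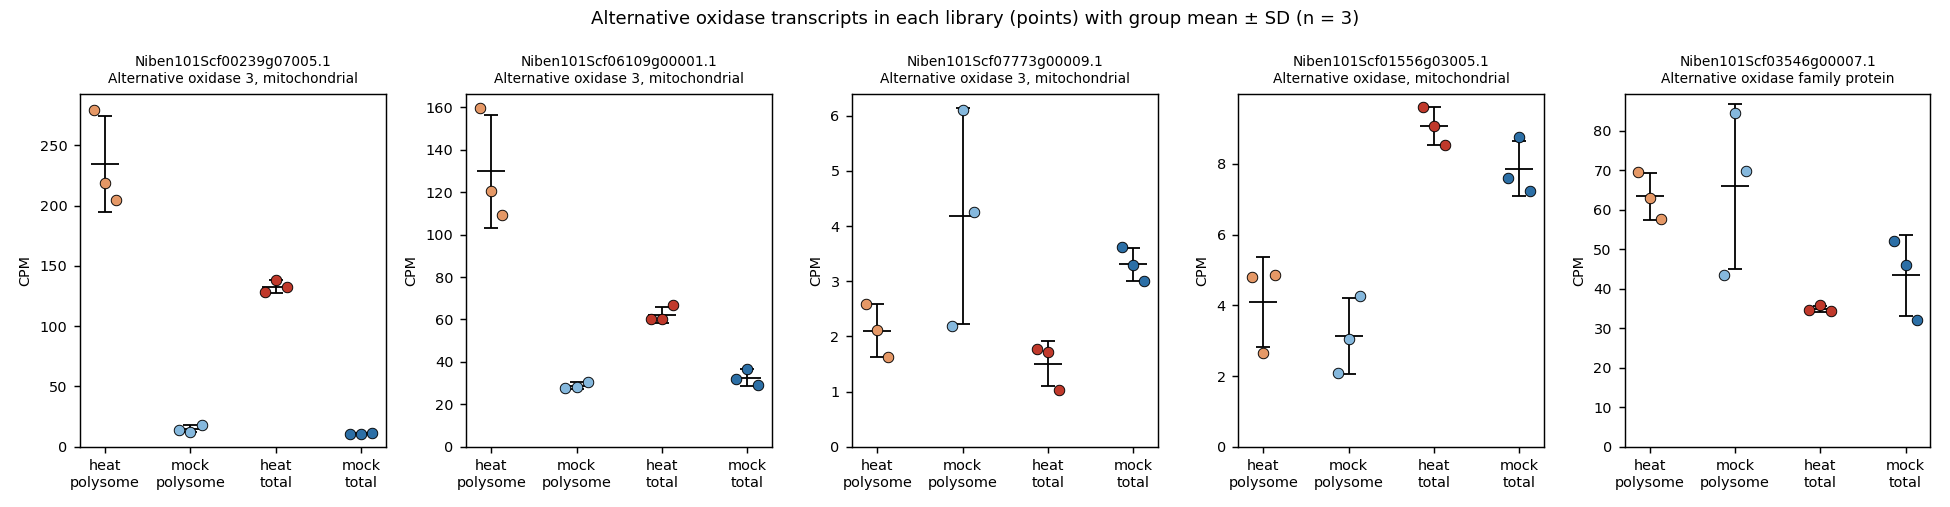
Level of the 5 alternative oxidase genes in every library, in CPM on a linear axis of its own for each gene; points are libraries, and the bar and whiskers are the group mean ± SD (n = 3). In Niben101Scf00239g07005.1 every heat library, from 128 to 279 CPM, lies above every mock library, from 10.4 to 18.02 CPM.

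Niben101Scf00239g07005.1, a mitochondrial alternative oxidase 3 gene, changed most. In polysome RNA it had 279, 219 and 205 CPM after heat, against 13.99, 12.6 and 18.02 CPM in mock. In total RNA it had 128, 138 and 132 CPM after heat, against 10.8, 10.4 and 11.5 CPM in mock. All heat libraries lay far above all mock libraries of either fraction. The counts behind these levels were 1646 to 2273 in heat libraries and 147 to 179 in mock libraries. The log2 change was 3.98 ± 0.18 in polysome RNA, a 15.8-fold rise (edgeR adjusted p = 3.5e-11), and 3.61 ± 0.17 in total RNA, a 12.2-fold rise (edgeR adjusted p = 9.4e-11). In polysome RNA 591 of the genes tested had a larger log2 change and in total RNA 652, so 98.3% and 98.1% of genes had a smaller one. Without mock total libraries 6 and 7 the change in total RNA, against 1 mock library, was 3.65. Its group means ran from heat polysome RNA, at 234 CPM, through heat total RNA, at 133 CPM, and mock polysome RNA, at 14.9 CPM, to mock total RNA, at 10.9 CPM, and no neighbours in this order overlapped.

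Niben101Scf06109g00001.1, the second alternative oxidase 3 gene, rose by less. In polysome RNA the heat libraries had 159.9, 120.4 and 109 CPM, against 27.9, 28.03 and 30.7 CPM in the mock libraries. Its total RNA levels were 60.2, 60.0 and 66.6 CPM after heat, against 32.1, 36.7 and 28.95 CPM in mock. Heat and mock did not overlap in either fraction, and the heat polysome libraries were the most spread, at 130 ± 26.7 CPM (SD, n = 3). Its log2 change was 2.17 ± 0.16 in polysome RNA, a 4.50-fold rise (edgeR adjusted p = 1.7e-08), and 0.93 ± 0.16 in total RNA, a 1.91-fold rise (edgeR adjusted p = 0.00011). In polysome RNA 2330 genes had a larger change and in total RNA 5899. Without mock total libraries 6 and 7 the change in total RNA, against 1 mock library, was 0.99. Group means ran from heat polysome RNA through heat total RNA, at 62.3 CPM, to mock total RNA, at 32.6 CPM, and mock polysome RNA, at 28.9 CPM, and only the mock pair overlapped.

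Niben101Scf07773g00009.1, the third alternative oxidase 3 gene, was scarce and fell. In polysome RNA it had 2.58, 2.11 and 1.62 CPM after heat, against 2.19, 6.11 and 4.25 CPM in mock. Total RNA held 1.77, 1.71 and 1.04 CPM of it after heat, against 3.62, 3.29 and 3.01 CPM in mock, from 17 to 31 counts in heat libraries and 47 to 57 in mock libraries. In polysome RNA mock library 2 lay among the heat libraries, while in total RNA the groups did not overlap. The log2 change was -1.0 ± 0.35 in polysome RNA (edgeR adjusted p = 0.025) and -1.13 ± 0.34 in total RNA (edgeR adjusted p = 0.01). The call in polysome RNA was lost without heat library 6 or 7 (edgeR adjusted p = 0.065 and 0.097), without mock library 3, where the change was -0.59, or 4 (edgeR adjusted p = 0.19 and 0.052) and with limma-voom (adjusted p = 0.06). The call in total RNA was lost without heat library 4, at -0.89 (edgeR adjusted p = 0.064), and, against the 1 mock library left without 6 and 7, at -1.22 (edgeR adjusted p = 0.055). The mean over both fractions, which uses all 12 libraries, was -1.06 ± 0.24 (edgeR adjusted p = 0.0012), and it stayed past the threshold in each alternative in which the gene was tested. Group means were 4.18 CPM in mock polysome RNA, 3.30 CPM in mock total RNA, 2.10 CPM in heat polysome RNA and 1.51 CPM in heat total RNA, and of these neighbours mock total and heat polysome RNA alone did not overlap. The 3 alternative oxidase 3 genes share 1 description and hit, and where stretches of them are near-identical, reads could have been split between them.

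Without lengths, neither CPM nor counts of different genes rank their transcript numbers. Niben101Scf00239g07005.1 was set against Niben101Scf06109g00001.1 as a ratio of counts within each library, which library scaling does not touch. Only the change of this ratio between treatments can be read. In polysome RNA the ratio was 1.75, 1.82 and 1.88 after heat, against 0.502, 0.45 and 0.588 in mock. The total RNA ratios were 2.13, 2.31 and 1.98 after heat, against 0.336, 0.285 and 0.396 in mock. All 6 heat libraries lay above all 6 mock libraries, while a ratio above or below 1 does not tell which transcript was more numerous. The ratio was 3.56-fold higher after heat in polysome RNA and 6.35-fold higher in total RNA. It restates the difference between the heat changes of the 2 genes, which had been seen to rise, and adds no separate support. An exact two-sided permutation test over libraries gave p = 0.1 in each fraction, which is the smallest value that 3 libraries against 3 allow.

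Niben101Scf01556g03005.1, the gene with the fungal hit, did not pass the test. In polysome RNA it had 4.80, 2.64 and 4.86 CPM after heat, against 2.09, 3.05 and 4.25 CPM in mock. In total RNA it had 9.61, 9.06 and 8.52 CPM after heat, against 7.61, 8.75 and 7.24 CPM in mock. Heat and mock libraries overlapped in both fractions. The log2 change was 0.39 ± 0.28 in polysome RNA (edgeR adjusted p = 0.25) and 0.20 ± 0.23 in total RNA (edgeR adjusted p = 0.46), or 0.28 in total RNA without mock libraries 6 and 7. Counts were 25 to 39 per heat polysome library and 22 to 40 per mock polysome library.

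Niben101Scf03546g00007.1, the homolog of the plastid terminal oxidase, did not pass the test either. In polysome RNA it had 69.5, 63.0 and 57.5 CPM after heat, against 43.4, 84.4 and 69.8 CPM in mock. In total RNA it had 34.7, 35.8 and 34.3 CPM after heat, against 52.0, 46.0 and 32.1 CPM in mock. The mock libraries were spread widely in both fractions and enclosed the heat libraries. The log2 change was -0.06 ± 0.21 in polysome RNA (edgeR adjusted p = 0.83) and -0.31 ± 0.21 in total RNA (edgeR adjusted p = 0.23), or -0.54 in total RNA without mock libraries 6 and 7. The sign in polysome RNA turned without heat library 7, at 0.02, and without mock library 3, at 0.17. By group mean the order was mock polysome RNA, at 65.9 CPM, heat polysome RNA, at 63.3 CPM, mock total RNA, at 43.4 CPM, and heat total RNA, at 34.9 CPM, with overlap within a fraction and none between heat polysome and mock total RNA.

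**Figure D2:**
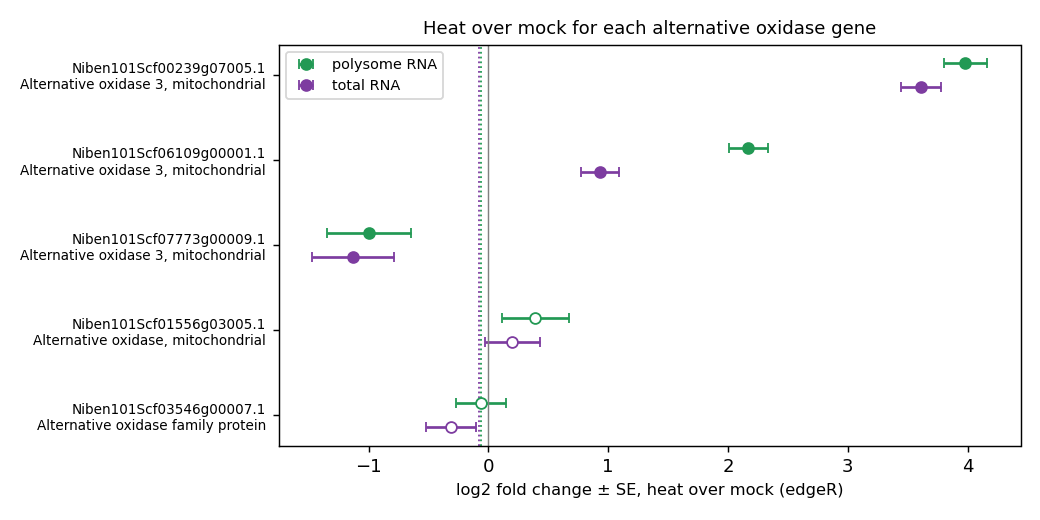
Log2 fold change of heat over mock ± SE for the 5 genes, with polysome RNA drawn above total RNA for each gene; filled points passed the threshold, and dotted lines mark the median over all genes tested. Niben101Scf00239g07005.1 stands at 3.98 and 3.61, Niben101Scf06109g00001.1 at 2.17 and 0.93, and the other genes between -1.13 and 0.39.

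The make-up of the family by summed CPM moved with these changes. Summed over the 5 genes, the level was 434 ± 72.9 CPM in heat polysome RNA and 117 ± 24 CPM in mock polysome RNA, and 241 ± 5.51 CPM in heat total RNA and 98.0 ± 13.2 CPM in mock total RNA (SD, n = 3 each). Niben101Scf00239g07005.1 held 54.0 ± 0.244% of the sum in heat polysome RNA and 13.1 ± 3.26% in mock polysome RNA. Its share in total RNA was 55.2 ± 1.12% after heat and 11.3 ± 2.20% in mock. The plastid terminal oxidase homolog Niben101Scf03546g00007.1 held 14.7 ± 1.1% in heat polysome RNA and 55.4 ± 7.23% in mock polysome RNA, and 14.5 ± 0.351% in heat total RNA and 43.8 ± 5.12% in mock total RNA, although its own level had not passed the test in either fraction. These shares depend on transcript length as well as transcript number.

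Translation efficiency was compared as the heat effect in polysome RNA minus that in total RNA, an interaction term in the same edgeR fit. Of the 5 genes, 1 rose past the threshold and 0 fell, where 10.2% of all genes tested rose and 8.42% fell, 18.6% in either direction. The riser was Niben101Scf06109g00001.1, at 1.23 ± 0.22, a 2.35-fold larger heat effect in polysome RNA than in total RNA (edgeR adjusted p = 0.0019), and 2828 genes had a larger value. It stayed past the threshold in the 18 alternatives that keep at least 2 libraries in each group, between 1.04 and 1.33, with adjusted p from 1.8e-05 to 0.01. Against the 1 mock total library left without 6 and 7 it was 1.2. For Niben101Scf00239g07005.1, the gene with the larger heat effect, the term was 0.38 ± 0.23 (edgeR adjusted p = 0.28), which did not pass the threshold. Whether the terms of these genes differ from each other was not tested. It was 0.25 ± 0.30 for Niben101Scf03546g00007.1, 0.18 ± 0.36 for Niben101Scf01556g03005.1 and 0.13 ± 0.49 for Niben101Scf07773g00009.1, with edgeR adjusted p-values of 0.61, 0.77 and 0.89. In these last 3 genes the sign turned without mock polysome library 2, at -0.01, -0.07 and -0.22 in the same order. For Niben101Scf07773g00009.1 it also turned without heat total library 4, at -0.09, and without heat polysome library 5, at -0.05.

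Within each treatment, polysome RNA was then set against total RNA. After heat, 3 of the 5 genes were higher in polysome RNA and 1 was lower, where 30.8% of all genes tested were higher and 28.4% lower, 59.1% in either direction. In mock, 2 were higher and 1 lower, where 27% of all genes were higher and 27.2% lower, 54.2% in either direction. Polysome and total RNA libraries did not overlap for 69.0% of all genes tested after heat and 55.8% in mock. Polysome over total log2 values rest on the total count of each library and on the TMM correction for its make-up. After heat, Niben101Scf00239g07005.1 had 1646 to 2273 counts per polysome library and 2170 to 2239 per total RNA library. Total counts there were 11766622 to 14485118 and 12601286 to 14313000, so its polysome over total value after heat depends on that scaling. Niben101Scf06109g00001.1 had 876 to 1300 counts per polysome library after heat, with 947 to 1094 per total RNA library. For Niben101Scf03546g00007.1 they numbered 462 to 597 and 563 to 607, so the values of both genes after heat depend on the scaling too. Counts of Niben101Scf01556g03005.1, at 25 to 39 and 140 to 168, were already lower in the polysome libraries. Polysome over total values compare a transcript with the other transcripts of its fraction.

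The alternative oxidase 3 gene Niben101Scf00239g07005.1 was 1.76-fold higher in polysome than in total RNA after heat, a log2 difference of 0.82 ± 0.16 (edgeR adjusted p = 0.00029). In mock its difference was 0.44 ± 0.17 (edgeR adjusted p = 0.035), and the libraries did not overlap under either treatment. The mock call was lost without mock total library 5 or 6 (adjusted p = 0.079 and 0.1), with total library 5 alone (adjusted p = 0.18), without mock polysome library 4 (0.29, adjusted p = 0.18) and when only the compared libraries entered the fit (adjusted p = 0.075). Niben101Scf06109g00001.1 was 2.08-fold higher in polysome than in total RNA after heat, at 1.06 ± 0.16 (edgeR adjusted p = 2.7e-05). In mock it was at -0.18 ± 0.16 (edgeR adjusted p = 0.36), with overlapping libraries.

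The gene with the fungal hit, Niben101Scf01556g03005.1, went the other way under both treatments. It was lower in polysome than in total RNA, at -1.16 ± 0.25 after heat and -1.34 ± 0.25 in mock (edgeR adjusted p = 0.00091 and 0.00037), or -1.30 in mock against total library 5 alone. Its highest polysome library, at 4.86 CPM, lay below its lowest total RNA library, at 7.24 CPM. The plastid terminal oxidase homolog Niben101Scf03546g00007.1 was higher in polysome than in total RNA after heat, at 0.86 ± 0.21 (edgeR adjusted p = 0.0027), with no overlap. In mock it was at 0.60 ± 0.21 (edgeR adjusted p = 0.025), but the libraries overlapped. That mock call was lost without mock total library 7 (0.43, adjusted p = 0.11), without mock polysome library 3 (0.39, adjusted p = 0.14) or 4 (adjusted p = 0.071), with mock total library 5 alone (0.34, adjusted p = 0.37) and when only the compared libraries entered the fit (adjusted p = 0.091). For Niben101Scf07773g00009.1 the difference was 0.48 ± 0.37 after heat and 0.35 ± 0.32 in mock (edgeR adjusted p = 0.28 and 0.37), with overlap in both, and the mock value turned to -0.05 without mock polysome library 3. Over all 4 groups, Niben101Scf01556g03005.1 was highest in heat total RNA, at 9.07 CPM, then in mock total RNA, at 7.87 CPM, heat polysome RNA, at 4.10 CPM, and mock polysome RNA, at 3.13 CPM, with overlap between treatments and none between fractions.

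**Figure D3:**
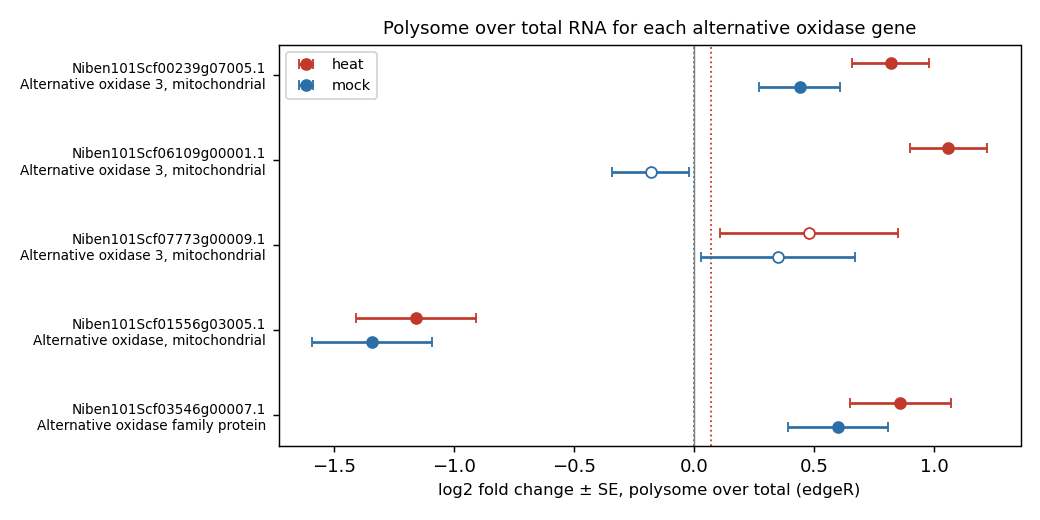
Log2 fold change of polysome over total RNA for the 5 genes after heat and in mock, ± SE, heat drawn above mock; filled points passed the threshold, and dotted lines mark the medians over all genes tested. Niben101Scf06109g00001.1 stands at 1.06 after heat and at -0.18 in mock, and Niben101Scf01556g03005.1 lies below 0 under both treatments, at -1.16 and -1.34.

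The authors' deposited table gives log2 ratios of its own for these genes, without errors. In the authors' deposited table, heat over mock is 4.02 in polysome RNA and 3.75 in total RNA for Niben101Scf00239g07005.1. It is 2.21 and 1.07 for Niben101Scf06109g00001.1 and -0.95 and -1.0 for Niben101Scf07773g00009.1 in the authors' deposited table. For Niben101Scf01556g03005.1 the authors' deposited table has 0.43 and 0.34, and for Niben101Scf03546g00007.1 it has -0.02 and -0.18. The 5 genes stand in the same order in both sources.

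The genes with the most similar profiles were looked up for both genes that rose, by Pearson's r of log2 CPM over the 12 libraries. The search covered 16160 well-counted genes, without those whose description was empty, unknown, uncharacterized or hypothetical. For Niben101Scf00239g07005.1 the 5 most similar were the class I small heat shock protein gene Niben101Ctg10208g00001.1 (r = 0.998), a peptidyl-prolyl isomerase gene, Niben101Scf02139g02009.1 (r = 0.998), the nudC gene Niben101Scf01543g06031.1 (r = 0.998), a LysM domain gene, Niben101Scf02010g01010.1 (r = 0.997), and the class IV small heat shock protein gene Niben101Scf08390g02012.1 (r = 0.997). Small heat shock proteins bind unfolding proteins and are known for strong induction by heat. For Niben101Scf06109g00001.1 they were a CTC-interacting domain 6 gene, Niben101Scf00777g03019.1 (r = 0.992), the RING finger protein 11 gene Niben101Scf00381g05002.1 (r = 0.991), the CONSTANS-LIKE 4 zinc finger gene Niben101Scf06454g02009.1 (r = 0.990), Niben101Scf07687g01005.1 (r = 0.989) and the strictosidine synthase-like 3 gene Niben101Scf04325g00005.1 (r = 0.988). The description of Niben101Scf07687g01005.1 gives only the name of a Brassica napus gene. The log2 heat effect of the 5 genes most like Niben101Scf06109g00001.1 was 1.59 to 2.94 in polysome RNA and 0.59 to 1.27 in total RNA. Their choice by likeness had fixed that difference. For the 5 genes most like Niben101Scf00239g07005.1 it was 2.24 to 11.65 in polysome RNA and 2.02 to 10.71 in total RNA. That gene itself stood at 3.98 and 3.61, as r does not measure the size of a change. Between the family members r was 0.937 for Niben101Scf00239g07005.1 and Niben101Scf06109g00001.1 and -0.703 for Niben101Scf00239g07005.1 and Niben101Scf07773g00009.1. These r values describe the same 12 libraries in 4 groups, so group differences make up most of them.

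Other routes into and around the respiratory chain were described from lists matched on the annotation text. Counts in these lists stand against all genes tested, of which 28.1% rose and 28% fell in polysome RNA and 25.7% rose and 28.3% fell in total RNA. Type II NAD(P)H dehydrogenases feed electrons to ubiquinone without pumping protons. Of 5 tested, 0 rose and 1 fell in polysome RNA, and 0 rose and 3 fell in total RNA. The median log2 changes were -1.38 and -1.29. Both medians are the change of 1 gene, at 0.276 CPM in heat and 0.753 CPM in mock polysome RNA. It was not called in polysome RNA (edgeR adjusted p = 0.071). All tested genes but Niben101Scf05880g03034.1 averaged 0.236 to 1.27 CPM in each group, so few counts stand behind them. The single fall in polysome RNA is near the background share of 28%. Without any 1 of the mock total libraries 5, 6 and 7, or without mock polysome library 3, 2 fell in polysome RNA. With counts less 1, 3 fell there. In total RNA 1 fell without mock total library 5, with only the compared libraries and at a mean of at least 5 CPM. The most changed, the NDB1-type gene Niben101Scf05880g03034.1, averaged 9.28 CPM in heat polysome RNA and 54.3 CPM in mock polysome RNA, a change of -2.55 ± 0.16 (edgeR adjusted p = 1.8e-09). Uncoupling proteins are named for letting protons back into the matrix. Of 5 genes with that name, 3 are described as uncoupling protein 5, and whether these do so was not tested. In polysome RNA 0 rose and 1 fell, an uncoupling protein 5 gene, or 2 fell without mock polysome library 3. In total RNA 1 rose and 2 fell. Niben101Scf07742g01016.1, described as uncoupling protein 2, stood at 0.26 ± 0.32 in polysome RNA (edgeR adjusted p = 0.52) and rose by 1.88 ± 0.29 in total RNA (edgeR adjusted p = 5.8e-05).

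Complexes I and II reduce the ubiquinone that alternative oxidase draws on, and complexes III and IV form the pathway it bypasses. In polysome RNA, 20 of 58 complex I genes rose and 3 fell, 8 of 13 complex II genes rose and 0 fell, 8 of 18 complex III genes rose and 3 fell, and 16 of 41 complex IV genes rose and 8 fell. Over all genes tested 28.1% rose and 28% fell, and the rises in complex I are near that share. The falls moved with single libraries: there were 9 in complex I without mock polysome library 3, 1 in complex II without heat polysome library 6, 1 in complex III without that library or heat total library 3, and 4 in complex IV without heat polysome library 5 or mock polysome library 2. Rises in total RNA numbered 9, 6, 6 and 10 in complexes I to IV, with 6 in complex IV without mock library 6. Falls in total RNA numbered 7, 1, 0 and 8, where 25.7% of all genes rose and 28.3% fell. Without mock total libraries 6 and 7, with 1 mock total library left, complexes I and IV had fewer falls and more rises in total RNA. Complex II then had fewer of both, and complex III fewer rises. The cause was not tested. Falls in complex I numbered 4 without heat total library 2 or 3 and 2 without heat total library 4. There were 14 without mock total library 5 and 3 without mock total library 7. In complex IV falls numbered 5 without heat total library 3, 3 without heat total library 4 and 2 without mock total library 6. In complex II there were 0 without heat total library 4 and 2 without mock polysome library 3, and in complex III 1 without mock total library 7. The succinate dehydrogenase iron-sulfur gene Niben101Scf07576g01004.1, of complex II, rose by 1.31 ± 0.15 in polysome RNA and by 1.91 ± 0.15 in total RNA (edgeR adjusted p = 1.6e-06 and 2.7e-08).

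Cytochrome c carries electrons between complexes III and IV, and Niben101Scf12289g00014.1, described as cytochrome c, changed more than any alternative oxidase gene. It averaged 779 CPM in heat polysome RNA and 24.6 CPM in mock polysome RNA, and 109 CPM in heat total RNA and 2.56 CPM in mock total RNA. Its log2 change was 4.98 ± 0.16 in polysome RNA and 5.40 ± 0.17 in total RNA (edgeR adjusted p = 5.8e-13 and 6.3e-13). Of the 7 genes of that list, 1 is described as a cytochrome c assembly protein. In polysome RNA 5 rose, the assembly protein gene among them, and 1 fell, Niben101Scf02174g02010.1. Over all genes 28.1% rose and 28% fell there. In total RNA 2 rose and 3 fell, where 25.7% rose and 28.3% fell. The 3 falls were in the assembly protein gene, Niben101Scf02174g02010.1 and Niben101Scf03867g02038.1, the last named after its values were seen. Niben101Scf02174g02010.1 and Niben101Scf03867g02038.1 are described as cytochrome c with a length. Whether they code for the carrier between complexes III and IV was not tested. The genes described as cytochrome c without a length did not fall in either fraction. The 2 rises numbered 4 without mock total library 7, and the 3 falls numbered 1 without any 1 of the 3 heat total libraries, of the 3 heat polysome libraries or of mock total library 6, with RLE or DESeq2 scaling, with no filter and with counts less 1. Against mock total library 5 alone the rises and falls were 4 and 0. Of 22 mitochondrial ATP synthase genes, 8 rose and 4 fell in polysome RNA, near the shares over all genes, with 4 rises without heat library 6 and 5 without heat library 7, mock library 3 or mock library 4. In total RNA 3 of them rose and 7 fell, or 1 and 2 against mock library 5 alone.

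Prohibitins are scaffold proteins of the inner mitochondrial membrane. Of 14 genes matched by that word, 9 rose and 0 fell in polysome RNA, where 28.1% of all genes rose and 28% fell. In total RNA 6 rose and 2 fell, where 25.7% rose and 28.3% fell. The 2 falls numbered 1 without heat library 2 or 4 or mock library 5, with RLE or DESeq2 scaling and with no filter, and 0 without heat library 3 or mock library 6, or against mock library 5 alone. Of the 14, 2 are described as stomatin/prohibitin-like membrane protease subunits and not as prohibitins, and both rose in each fraction. The prohibitin 3 gene Niben101Scf05554g07013.1 rose by 3.88 ± 0.20 in polysome RNA and by 2.52 ± 0.18 in total RNA (edgeR adjusted p = 1.8e-10 and 1.2e-08). Some NAC transcription factors control alternative oxidase genes in Arabidopsis during mitochondrial stress. Of the 14 genes found for them, 12 are described as NAC 78 and 2 as NAC 17, the known regulator. Of the NAC 78 genes 8 rose and 1 fell in polysome RNA, and 9 rose and 0 fell in total RNA, against the shares over all genes of 28.1% and 28%, and of 25.7% and 28.3%. The 2 NAC 17 genes, of which Niben101Scf02090g06012.1 is named after its values were seen, did not move together. Niben101Scf02090g06012.1 changed by 0.84 ± 0.19 in polysome RNA and 0.67 ± 0.18 in total RNA (edgeR adjusted p = 0.0015 and 0.0058). Niben101Scf08526g04001.1 stood at -0.16 ± 0.20 in polysome RNA and fell in total RNA, at -0.65 ± 0.18 (edgeR adjusted p = 0.51 and 0.0055), the fall not being called against mock total library 5 alone. The NAC 78 gene with the smallest p-value, Niben101Scf01481g02006.1, rose by 2.18 ± 0.15 in polysome RNA and by 2.56 ± 0.15 in total RNA (edgeR adjusted p = 5.7e-09 and 8.4e-10).

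The desaturation of phytoene and zeta-carotene passes electrons to the plastoquinone that the plastid terminal oxidase reoxidises. Of 7 genes matched, 5 are desaturases and 2 are 15-cis-zeta-carotene isomerases, which act between the desaturations and pass on no electrons. Of the 7, 1 rose and 2 fell in polysome RNA, close to the 28.1% and 28% over all genes, and 0 rose and 3 fell in total RNA, or 1 without mock library 6, where 25.7% and 28.3% of all genes did. Among the 5 desaturases 0 rose and 1 fell in each fraction. The 1 riser in polysome RNA was an isomerase gene: the 15-cis-zeta-carotene isomerase gene Niben101Scf12372g00005.1 rose there by 0.53 ± 0.13 and fell in total RNA, at -0.59 ± 0.13 (edgeR adjusted p = 0.0032 and 0.0012). The zeta-carotene desaturase gene Niben101Scf11383g02015.1 changed by -0.73 ± 0.19 in polysome RNA (edgeR adjusted p = 0.0046) and stood at -0.11 ± 0.18 in total RNA (edgeR adjusted p = 0.65).

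**Figure D4:**
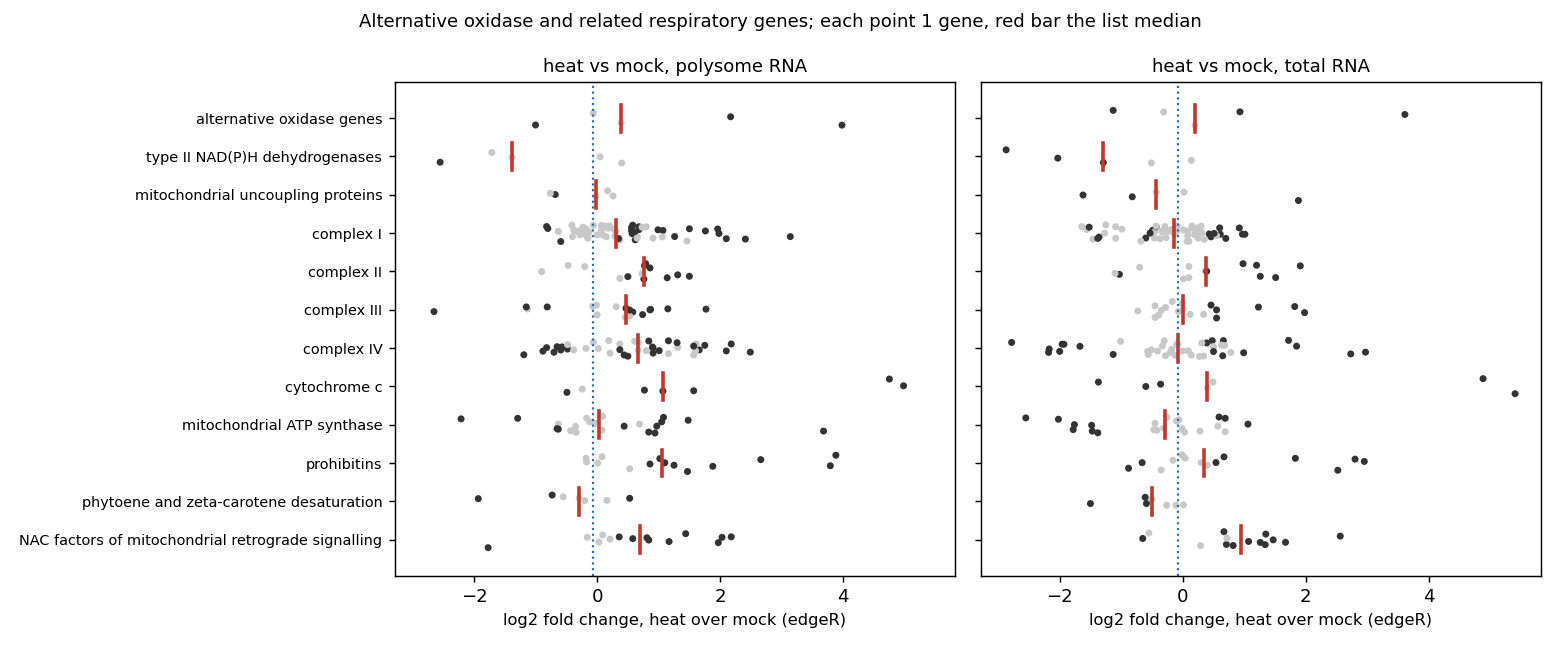
Log2 fold change of heat over mock for the alternative oxidase genes and each related list, in polysome RNA (left) and total RNA (right); each point is 1 gene, dark where it passed the threshold, red bars are list medians and the dotted line is the median over all genes tested. The medians of type II NAD(P)H dehydrogenases stand at -1.38 and -1.29, both the change of 1 gene with few counts. The largest alternative oxidase change stands at 3.98 and 3.61.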

How the data were processed

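Per the submitters' processing notes, the tools were cutadapt, HISAT2, HTSeq 0.11.0 and DESeq, with no step assigned to any. No genome or sequence was used, and the authors' build was not given in the sources used here. The deposited counts per gene are whole numbers under a raw data header, per the file headers. The deposited signal values, the same counts over a size factor of each library, were not tested. The deposited log2 values are the authors' ratios between groups, per the file headers. All 12 libraries had a lowest count of 1, so subtracting 1 from every count was tried. Of the deposited lines, 2 had been emptied and are not analysed here, and 0 per-sample columns lacked a sample.

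Tests used the quasi-likelihood method of edgeR 4.0.16 (R 4.3.3), after filterByExpr at a minimum count of 10 and TMM scaling, on all 12 libraries with a mean for each group. P-values were adjusted over all 34325 genes tested, with a threshold of 0.05, and the fit was tested on simulated data. Standard errors were computed as the log2 fold change over the root of F. Translation efficiency is the interaction of treatment and fraction. The alternatives tried were scaling by RLE, dropping the filter, requiring a mean of 5 CPM or more, DESeq2 1.42.0, limma-voom (limma 3.58.1), the compared libraries alone, counts less 1, each library left out, a block for the title number, and mock total libraries 6 and 7 left out together, which leaves 1 mock total library, assumed to vary like the other groups. The spread between 3 libraries per group limits precision, and for the scarcest genes counting does too. No 2 libraries of a group agreed within sampling noise.

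The members and lists were chosen with earlier results of these data known. Related lists were type II NAD(P)H dehydrogenases, uncoupling proteins, complexes I to IV, cytochrome c, mitochondrial ATP synthase, BCS1-type ATPases (1 gene, not tested), prohibitins, phytoene and zeta-carotene desaturation, and NAC factors. Every member is named. From each list the text could name the gene with the highest mean CPM and, in each heat comparison, the gene with the smallest adjusted p in each direction. Similar profiles were sought for the member with the highest mean CPM and for the one with the smallest p among the others, by log2 CPM with a prior count of 2.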

Additional observations from a re-analysis of the deposited data

Results flagged for a closer look

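The heat effect on Niben101Scf06109g00001.1 differed between polysome RNA and total RNA by a test of the difference itself. It was larger in polysome RNA by 1.23 ± 0.22 on the log2 scale (edgeR's quasi-likelihood interaction test, adjusted p = 0.0019 over all genes tested). In polysome RNA the 3 heat libraries had 109 to 159.9 CPM, against 27.9 to 30.7 CPM in the 3 mock libraries. In total RNA they had 60.0 to 66.6 CPM, against 28.95 to 36.7 CPM in mock. The title numbers 2 to 4 and 5 to 7 divide the libraries exactly as this difference does, and the 2 cannot be told apart.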

How the results depend on the processing

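Rises of the alternative oxidase genes after heat kept their number, 2 in each fraction, under every alternative run. The fall depended on the setting: 0 genes fell in polysome RNA with a mean of at least 5 CPM, where Niben101Scf07773g00009.1 was not tested, and with limma-voom. In total RNA 0 fell at that mean and without mock libraries 6 and 7. Leaving out single libraries gave 0 to 1 falls in each fraction. In mock polysome against total RNA, 0 genes were higher with only the compared libraries and without mock total libraries 6 and 7, and 0 to 2 with single libraries left out. In the mean heat effect, 2 to 3 genes rose with single libraries left out, the third being Niben101Scf01556g03005.1 at 0.44 without heat polysome library 6 or mock polysome library 4. At the 5 CPM mean Niben101Scf03546g00007.1 fell in that effect, at -0.35 (edgeR adjusted p = 0.044). Signs turned in 5 values, none past the threshold. With single libraries left out, the efficiency term ran from -0.22 to 0.52 for Niben101Scf07773g00009.1, from -0.07 to 0.42 for Niben101Scf01556g03005.1 and from -0.01 to 0.46 for Niben101Scf03546g00007.1. The polysome heat effect of Niben101Scf03546g00007.1 ran from -0.28 to 0.17, and the mock polysome over total value of Niben101Scf07773g00009.1 from -0.05 to 0.66. The cause was not tested.

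Over all genes, the mean of at least 5 CPM, which tests fewer genes, left 5985 rises and 6261 falls in polysome RNA and 5534 and 6223 in total RNA. It left 6495 genes lower in polysome RNA after heat, 6177 higher and 6119 lower in mock, and 6355 rises and 7173 falls in the mean effect. Without mock total libraries 6 and 7, which leaves 1 mock total library and fewer calls by construction, 6262 genes fell in total RNA and 1374 rose and 1060 fell in efficiency. With single libraries left out, rises in efficiency numbered 2171 to 3839.

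The title numbers are shared by heat total with mock polysome RNA and by heat polysome with mock total RNA. Deviations of same-numbered libraries correlated at -0.0588 to -0.00316, so the number was not taken as a pairing. With it as a replicate block, possible for the mean heat effect alone, 10453 genes rose and 11376 fell, and 2 alternative oxidase genes rose and 1 fell. Niben101Scf00239g07005.1 then stood at 3.79, Niben101Scf06109g00001.1 at 1.54 and Niben101Scf07773g00009.1 at -1.03 (edgeR adjusted p = 7.6e-11, 9.6e-08 and 0.0026), and Niben101Scf01556g03005.1 at 0.30 and Niben101Scf03546g00007.1 at -0.15 (adjusted p = 0.22 and 0.35).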
